A study of Mus musculus with 6 samples.

Results

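The replication-dependent histone genes were followed through H3K27ac ChIP-seq of mouse retina. H3K27ac, the acetylation of histone H3 at lysine 27, lies at active promoters and enhancers. Members were all protein-coding genes of the GENCODE annotation of GRCm38 whose symbol starts with Hist1h, Hist2h, Hist3h or Hist4h. This rule gave 67 of 21938 protein-coding genes, with 54 in the Hist1 cluster on chromosome 13, 10 in Hist2 on chromosome 3, 2 in Hist3 on chromosome 11 and 1 in Hist4 on chromosome 6. By protein, there were 6 genes for the linker histone H1, 18 for H2A, 18 for H2B, 12 for H3 and 13 for H4. A gene was called marked in a sample if at least 1 bp of a peak lay within 2.5 kb of any of its transcription start sites (TSS).

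The samples were single retinas of wild-type (WT) mice that were 3 months old at the first treatment. In the 4xIOP group, the intraocular pressure (IOP) of the eye was held at 30 mmHg for 1 h, every other week and 4 times in all, and 3 such retinas were profiled. The other 3 retinas were untreated control eyes, contralateral to treated ones, and all 6 were collected on day 2 after the 4th elevation. The treatment protocol attached to the samples also speaks of dasatinib and of vehicle injections, and none of the 6 labels gives either agent. The labels do not say which control eye and which treated eye came from the same mouse.

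Each retina was represented by 1 peak list, called on that sample alone. The names of the peaks inside the lists carry a group too, and in 4 lists (replicates 1 and 2 of both groups) it is not the group of the label. Only control replicate 3 and 4xIOP replicate 3 carry the name of their labelled group. Groups follow the labels below, and every direction between the groups rests on them. The differences in share, peak number, median percentile and median rank are also given for the 2 matching lists alone and with the groups taken from the names. The lists held 16195 to 36509 peaks, with the most in control replicate 3 and the fewest in 4xIOP replicate 3, and these 2 lists also marked the most and the fewest protein-coding genes. The background of a list was taken as the lowest local background recovered from fold and p among its peaks. Divided by the length of the shortest peak, it was 87.4 to 173 fragments per 10 kb. The shortest peak was over 200 bp in control replicate 1 and 4xIOP replicates 1 and 2, and under it in the other 3 lists. Fragment length is not given by the labels, so lists were classed by this shortest peak alone. Photoreceptor genes, which define the main cell type of the retina, were marked at 7 or 8 of 8 promoters in every list. Markers of microglia (5 genes), vascular endothelium (3), pigment epithelium (4) and erythrocytes (4) were marked in 0 lists. Of 3 bipolar cell genes 1, 0 and 3 were marked in control and 0, 0 and 0 in 4xIOP, of 3 ganglion cell genes 0, 0 and 0 against 1, 0 and 1, and of 3 Mueller glia genes 1, 2 and 2 against 1, 2 and 1, and their part in the results was not tested.

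Dividing cells need new histones as fast as they copy their DNA, and the replication-dependent genes supply them in S phase. Their mRNAs carry no poly(A) tail and end instead in a short stem-loop, which is bound by the protein SLBP and cut by a dedicated machinery. Neurons of the adult retina no longer divide and take much of their new histone from replication-independent variant genes such as H3f3b, which are scattered over the genome and give polyadenylated mRNA. Transcription of the clusters is organised at histone locus bodies around the coactivator NPAT.

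The stem-loop and the promoter boxes known from these genes are shown first, since they do not depend on any peak. Members were chosen by symbol, and some of the boxes are also common in other promoters. A stem of 6 pairing bases around a loop of 4 was found in or within 200 bp of 63 of the 67 members, against 1 of 11 replication-independent variants (H2afx) and 66 of 7774 protein-coding genes shorter than 10 kb, members included. Of the 6 versions found, the first below served 40 members, the second 9 and the third, seen in H4 genes such as Hist4h4, 8. Capitals mark the stem, read on the strand of the gene from GRCm38.
stem-loop 1: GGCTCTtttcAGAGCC
stem-loop 2: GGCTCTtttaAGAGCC
stem-loop 3: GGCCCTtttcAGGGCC

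Promoters of 300 bp (250 before to 50 after the start, RefSeq, GRCm38.p6) could be matched for 62 members. The CCAAT box, read by the factor NF-Y, was present on either strand in 53 of 62 (85.5%), against 37.4% of all 32851 RefSeq promoters. All 50 matched genes for H1, H2A, H2B and H3 had it, and 3 of 12 for H4. TATAAA was present in 56.5% of members against 13.6% of all promoters. The octamer ATTTGCAT, a site for POU-domain factors such as OCT1, was in 21.0% against 1.74%, and its 13 members were 7 of 18 H2A and 6 of 16 H2B genes. AAACACA, known as the H1 box, was in 5 of 6 H1 promoters and in 7.18% of all promoters. GGTCC was in 11 of 12 H4 promoters, but in 41.9% of the 62 members together, against 45.5% of all promoters. Matches to different motifs overlapped in 2 of the 62 promoters. Members marked in all 6 lists and the other members held the CCAAT box in 86.4% and 83.3% of promoters.

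Many members share a promoter. In 13 pairs, 12 of them of H2A with H2B, the genes were transcribed away from each other with starts 176 to 660 bp apart. The stretch between the starts is given for Hist1h2ac/Hist1h2bc, which had the largest difference in mean fold percentile between the groups among members marked in all 6 lists, and for a duplicated pair that matters for the highest values. All 3 stretches are on the plus strand of GRCm38, with the CCAAT box, TATAAA and ATTTGCAT (either strand) in capitals, at chr13:23683949-23684198, chr13:21833508-21833742 and chr13:21810198-21810464.
Hist1h2ac/Hist1h2bc: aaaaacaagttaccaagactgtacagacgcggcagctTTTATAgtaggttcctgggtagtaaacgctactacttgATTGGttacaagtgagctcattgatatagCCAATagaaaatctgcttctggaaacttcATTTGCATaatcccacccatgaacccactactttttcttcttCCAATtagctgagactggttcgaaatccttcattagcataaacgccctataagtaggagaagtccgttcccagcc
Hist1h2ap/Hist1h2br: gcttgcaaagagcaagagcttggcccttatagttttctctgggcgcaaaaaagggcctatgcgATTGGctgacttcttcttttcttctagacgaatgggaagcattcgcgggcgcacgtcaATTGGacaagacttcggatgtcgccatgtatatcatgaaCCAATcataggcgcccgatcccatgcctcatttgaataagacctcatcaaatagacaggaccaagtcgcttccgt
Hist1h2bq/Hist1h2ao: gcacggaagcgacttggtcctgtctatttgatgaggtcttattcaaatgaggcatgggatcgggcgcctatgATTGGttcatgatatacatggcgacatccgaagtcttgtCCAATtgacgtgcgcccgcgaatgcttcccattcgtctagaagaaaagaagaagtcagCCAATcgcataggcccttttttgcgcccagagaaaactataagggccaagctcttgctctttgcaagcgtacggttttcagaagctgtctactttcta
The last pair is the reverse complement of the one above it over 235 bp, the full length of the shorter stretch. A read of 100 bp, the length used in the study, has no unique place by itself when it lies wholly within such a copy. Reads were paired, and a mate outside the copy, which could place the fragment, was not considered. In the 1001 bp around the TSS, 10 members had an exact copy elsewhere over at least 50% of the positions where such a read can start, 56 had one over some positions, and 11 had none.

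Upstream stretches of 250 bases on the strand of the gene show the boxes of the other families (RefSeq, GRCm38.p6). Hist1h1e (chr13:23622559-23622808, minus strand) carries the H1 box, CCAAT and TATAAA. Hist4h4 (chr6:136804432-136804681, minus strand) carries GGTCC and no CCAAT box, and Hist1h3g (chr13:23535168-23535417, plus strand), which was marked in 0 lists, carries 3 CCAAT boxes. Capitals mark these motifs.
Hist1h1e: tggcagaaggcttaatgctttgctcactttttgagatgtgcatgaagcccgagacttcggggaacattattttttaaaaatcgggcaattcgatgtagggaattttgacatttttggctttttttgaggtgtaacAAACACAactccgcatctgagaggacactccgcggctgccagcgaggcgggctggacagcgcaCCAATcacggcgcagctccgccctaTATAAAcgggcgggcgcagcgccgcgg
Hist4h4: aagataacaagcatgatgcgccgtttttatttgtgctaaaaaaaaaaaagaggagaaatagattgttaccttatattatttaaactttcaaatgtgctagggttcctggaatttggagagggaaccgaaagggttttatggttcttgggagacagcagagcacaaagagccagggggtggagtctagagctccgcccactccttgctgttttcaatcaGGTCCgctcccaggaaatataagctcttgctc
Hist1h3g: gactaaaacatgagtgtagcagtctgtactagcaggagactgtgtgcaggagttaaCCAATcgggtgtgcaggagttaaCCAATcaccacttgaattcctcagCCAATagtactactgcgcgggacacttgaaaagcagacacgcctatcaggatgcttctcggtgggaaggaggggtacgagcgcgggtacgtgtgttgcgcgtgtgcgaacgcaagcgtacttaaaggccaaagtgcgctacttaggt

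Most histone genes carried H3K27ac in these adult retinas. Control replicates 1 to 3 marked 60, 59 and 64 of the 67 members, and 4xIOP replicates 1 to 3 marked 60, 58 and 51. These counts are 89.6%, 88.1% and 95.5% in control and 89.6%, 86.6% and 76.1% in 4xIOP, beside 44.6% to 56.9% of all protein-coding genes. In all 6 lists together 49 members (73.1%) were marked, against 39.5% of all genes, and 3 members were marked in none. The 3 were Hist1h3g and the neighbours Hist1h2ba and Hist1h2aa, which encode the testis-specific H2B and H2A. Of all genes, 42.4% were marked in none.

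The close spacing of the members enters these counts. Another protein-coding TSS lay within 2.5 kb of 52 members (77.6%), against 14.6% of all genes, so that a single peak could mark up to 4 members. When a gene counted only if a summit lay nearer to its own TSS than to that of any other gene, 26 members (38.8%) were marked in all 6 lists instead of 49, against 33.9% of all genes. Within 500 bp of a TSS, 40 to 59 members were marked per list (59.7% to 88.1%), against 42.4% to 54.7% of all genes. The distinct peaks at members numbered 57, 49 and 75 in control and 47, 46 and 39 in 4xIOP. At 12 of the 13 pairs both partners were marked in at least 1 list, and there they had the same strongest peak in every list that marked both. The pair Hist1h2ba/Hist1h2aa was marked in 0 lists.

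**Figure D1:**
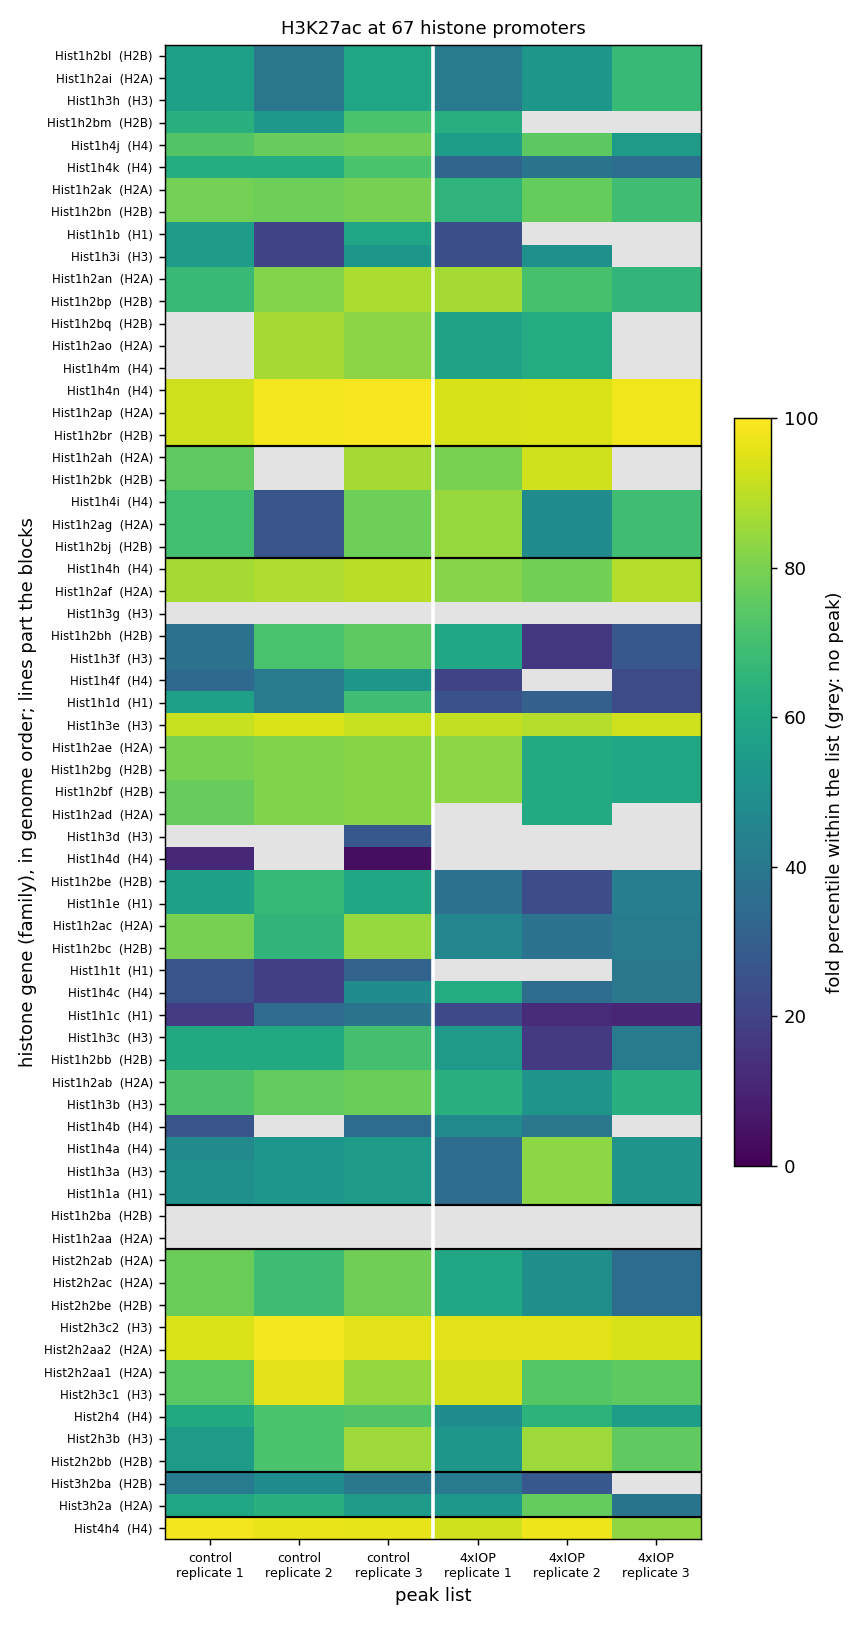
Fold percentile of the strongest promoter peak (colour, 0 to 100 within each list) for the 67 histone genes (rows, in genome order, lines between blocks more than 100 kb apart) in the 6 peak lists (columns). Hist1h2ap/Hist1h2br with Hist1h4n, Hist2h3c2/Hist2h2aa2 and Hist4h4 were high in all lists, and the grey cells, where no peak was called, were most frequent in 4xIOP replicate 3.

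Hist2 had 10 of 10 genes marked in every list, and 37 of the 54 genes of Hist1 were marked in all 6 lists. In the largest block of Hist1, 29 genes over 233 kb from Hist1h4h to Hist1h1a, 27, 25 and 28 were marked in control and 24, 24 and 24 in 4xIOP. The 18 genes of the first block, over 122 kb from Hist1h2bl to Hist1h2br, gave 15, 18 and 18 in control and 18, 16 and 12 in 4xIOP. Marking in all 6 lists was found for 4 of 6 H1, 14 of 18 H2A, 13 of 18 H2B, 9 of 12 H3 and 9 of 13 H4 genes. Genes in pairs and the other genes did not separate on this count, with 19 of 26 and 30 of 41. In the largest block peaks covered 5.84%, 5.13% and 9.15% of the sequence in control and 4.35%, 4.50% and 3.28% in 4xIOP, with a lower value in each 4xIOP list than in any control list. The first block and Hist2 separated in the same way, and the other blocks did not, with Hist4 the most covered in 4xIOP replicates 1 and 2. Of the promoters of all protein-coding genes, 5.79%, 4.92% and 9.43% was covered in control and 5.55%, 5.12% and 4.05% in 4xIOP, a difference of -1.81 points with overlap, against -2.66 in the largest block, -2.01 in the first and -2.97 in Hist2. With lists of equal length these 3 blocks still did not overlap (-1.05, -1.83 and -1.88), beside -1.05 at all promoters. With groups taken from the names all 3 overlapped, with differences of -1.25, -1.32 and -1.10 with all peaks, and of 0.40, -1.07 and 0.27 with lists of equal length.

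Peak strength was described by the fold percentile, the rank of the fold of a peak among all peaks of its list on a scale of 0 to 100. Fold is the fragment pile-up at the summit over a local background. By this measure member peaks were below other promoter peaks. They stood at a median percentile of 56.7, 59.0 and 55.6 in the control lists and 53.2, 52.5 and 43.8 in the 4xIOP lists, below the median of all promoter peaks in each list (59.0 to 71.3). The local background under member peaks was 1.98 to 5.07 times the lowest background of the list, against 1.81 to 3.20 times under all promoter peaks. It was higher at members in each of the 6 lists. The median number of fragments at the summit, not divided by this background, was 36, 40 and 55 in control and 34, 31 and 27 in 4xIOP at members, against 30, 33 and 51 and then 30, 28.5 and 27 at all promoter peaks.

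The highest percentiles among members marked in all 6 lists belonged to Hist1h4n, Hist1h2ap and Hist1h2br, for H4, H2A and H2B, which share a peak. No summit lay nearest to Hist1h4n in any list, and none lay within 500 bp of it. All 3 genes had the percentiles 92.6, 98.6 and 99.1 in control and 93.9, 94.3 and 98.0 in 4xIOP, and Hist1h2ap/Hist1h2br was the pair with the highest mean. The next were Hist2h3c2 and Hist2h2aa2, for H3 and H2A, with 94.6, 98.4 and 95.5 in control and 95.7, 95.6 and 93.9 in 4xIOP. No summit lay nearest to Hist2h3c2 in any list, so its values are those of the Hist2h2aa2 peak. All 5 genes are among the 10 with long exact copies. Hist1h2bq, Hist1h2ao and Hist1h4m, the duplicates of the first 3, were unmarked in control replicate 1 and 4xIOP replicate 3 and had percentiles from 57.8 to 86.7 elsewhere, so the split of signal between the copies is uncertain.

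Hist4h4, an H4 gene that stands alone on chromosome 6, had one of the strongest peaks with no exact copy of its promoter. Its fold was 8.68, 7.56 and 9.49 in control and 6.81, 8.00 and 5.96 in 4xIOP, with 90, 80 and 137 and then 60, 76 and 43 fragments at the summit. The percentiles were 98.1, 96.5 and 96.1 in control and 92.6, 97.6 and 83.4 in 4xIOP, and the groups overlapped. In Hist3, Hist3h2a (H2A) had the percentiles 59.4, 63.5 and 54.7 in control and 53.2, 76.2 and 38.8 in 4xIOP. Its neighbour Hist3h2ba (H2B) was at 41.1, 48.8 and 40.2 in control and at 40.9 and 26.99 in 4xIOP, with no peak in 4xIOP replicate 3. The groups overlapped at both Hist3 genes.

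The linker histone genes, whose proteins bind the nucleosome where DNA enters and leaves it, included the weakest members by fold percentile. Hist1h1c had the lowest mean of all members in 6 lists, at the percentiles 17.3, 34.9 and 38.4 in control and 22.2, 11.95 and 10.8 in 4xIOP. The other low members were the H4 gene Hist1h4c, at 26.02, 18.7 and 48.5 in control and 61.6, 35.3 and 39.6 in 4xIOP, and the linker gene Hist1h1d. Groups overlapped at Hist1h1c and Hist1h4c.

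At Hist1h1d the percentiles were 57.2, 41.3 and 69.5 in control and 25.2, 30.8 and 23.2 in 4xIOP, with every control list above every 4xIOP list. In control replicate 2 and 4xIOP replicate 3 the strongest peak in this window was that of the neighbouring H4 gene Hist1h4f. The region of Hist1h1d itself had a fold of 3.40 in control replicate 2 and of 3.44 in 4xIOP replicate 2, so that the groups overlapped there. Summits at Hist1h1d lay 224 to 587 bp past its RefSeq start, which is 1770 bp downstream of the GENCODE start. Hist1h1e was also higher in every control list, at 57.3, 66.99 and 60.2 against 37.1, 23.8 and 42.6. Hist1h1a was at 50.3, 52.5 and 54.9 in control and at 35.6, 83.1 and 51.6 in 4xIOP, where the groups overlapped.

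Hist1h1b was marked in 3 control lists (55.1, 20.3 and 59.2) and in 4xIOP replicate 1 alone (24.0), but a summit nearest to its own TSS was found in control replicate 3 only, and the other 3 values are those of the peak of the neighbouring H3 gene Hist1h3i. Hist1h1t, the testis-specific linker histone, was marked in 3 control lists (26.02, 18.7 and 31.9) and in 4xIOP replicate 3 alone (39.6). No summit lay nearest to the TSS of Hist1h1t in any list, and in control replicates 1 and 2 and 4xIOP replicate 3 its percentile was that of the neighbouring Hist1h4c. By family, the median percentile of peaks at H1 genes was 47.6, 41.3 and 46.4 in control and 24.6, 23.6 and 30.5 in 4xIOP, without overlap. Most regions behind this family value also lay at promoters of other members, namely Hist1h3i, Hist1h4f, Hist1h2be, Hist1h4c, Hist1h3a and Hist1h4a, so it does not describe H1 genes alone. The median over all promoter peaks was 65.8 ± 4.78 in the control lists and 62.2 ± 2.91 in the 4xIOP lists (SD, n = 3). With it subtracted in each list the H1 family stood at -16.0, -21.2 and -24.9 in control and at -38.5, -40.9 and -28.5 in 4xIOP, still without overlap. With lists of equal length it overlapped (35.5, 32.2 and 10.2 against 6.02, 6.61 and 30.5), and with groups taken from the names the difference had the opposite sign, at 8.25 with overlap, and at 25.1 without overlap when the lists were also of equal length. Without subtraction there was no overlap either for H2B (56.9, 59.0 and 60.2 against 56.7, 51.5 and 42.6) or for H3 (54.5, 59.0 and 54.9 against 41.6, 53.0 and 51.6), but H2B was separated by little, and both overlapped once the median of all promoter peaks was subtracted, and also with lists of equal length. The H2A family had 70.1, 69.3 and 59.3 in the control lists against 63.3, 61.4 and 56.4, which overlapped. The H4 family had 41.0, 52.5 and 54.2 in control and 55.5, 53.1 and 53.6 in 4xIOP, which overlapped.

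**Figure D2:**
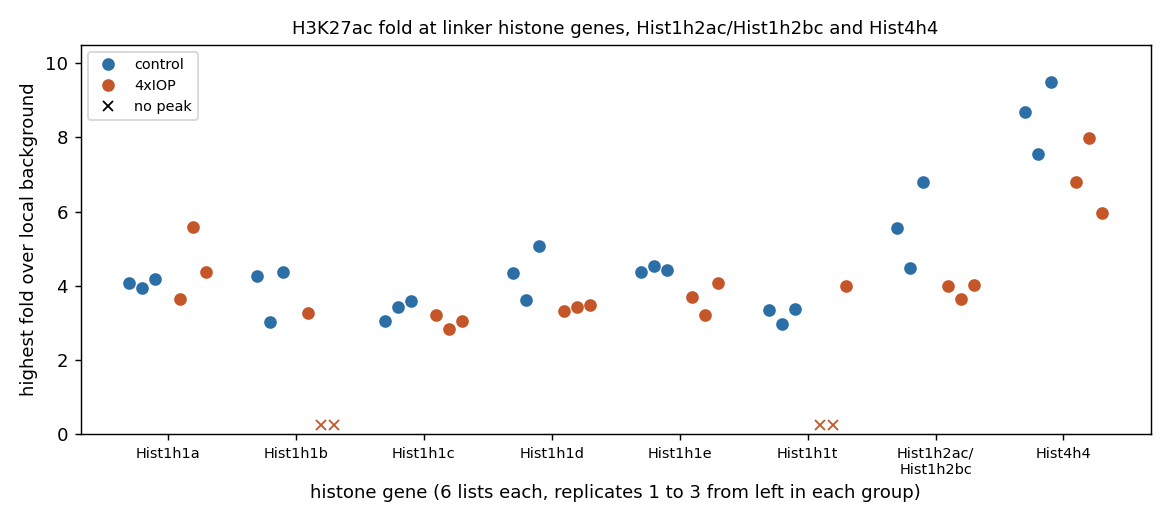
Highest fold over local background (vertical axis) at the 6 linker histone genes, the Hist1h2ac/Hist1h2bc pair and Hist4h4, in control (blue) and 4xIOP (orange) lists, with crosses for lists without a peak. Every control point is above every 4xIOP point at Hist1h1e, Hist1h1d and Hist1h2ac/Hist1h2bc (at Hist1h2ac 5.56, 4.47 and 6.79 against 3.99, 3.65 and 4.03), where at Hist1h1d the points of control replicate 2 and 4xIOP replicate 3 are the peak of the neighbouring Hist1h4f, and within the single regions tested below Hist1h1d and Hist1h2ac/Hist1h2bc overlap. Points overlap at Hist1h1a, Hist1h1c and Hist4h4.

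It was next asked whether repeated pressure elevation changed the marking of members. The control lists marked 91.0% ± 3.95 of the members and the 4xIOP lists 84.1% ± 7.05 (SD, n = 3). This difference of -6.97 percentage points was within the spread, with overlapping lists. With the 16195 peaks of highest fold from each list, 56, 59 and 51 members were marked in control and 60, 53 and 51 in 4xIOP, a difference of -0.995 points. The difference was -5.97 points when the summit itself had to lie in the promoter, and it was larger, at -11.4 points within 500 bp (all genes -4.84), -13.9 points with −log10 q of at least 5 (all genes -5.62) and -14.4 points by the nearest summit. By the nearest summit 47, 44 and 56 members in control and 43, 40 and 35 in 4xIOP were marked, without overlap, while the share of all genes differed by -4.93 points. With the rule used first, the share of all genes fell by 4.67 points between the groups, and with this subtracted the difference was -2.30 points. In the 2 lists whose names match their labels, 64 and 51 members were marked, and with groups taken from the names the difference was -5.97 points.

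**Figure D3:**
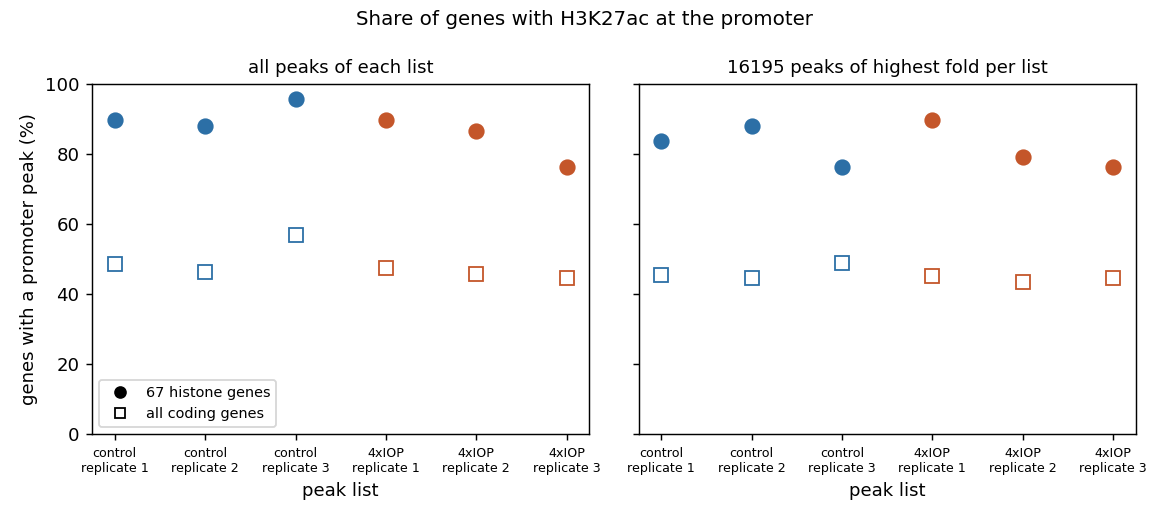
Share of genes with a promoter peak (vertical axis, percent) in each of the 6 lists for the 67 histone genes (filled circles) and all protein-coding genes (open squares), with all peaks (left) and with the 16195 peaks of highest fold per list (right). Histone genes lie above all genes in every list, and the low value of 4xIOP replicate 3 on the left is shared on the right by control replicate 3.

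No member (0) was marked in every control list while unmarked in every 4xIOP list, and 0 showed the opposite, beside 0.36% and 0% of all genes (79 and 0 genes). Of the 15 members marked in 1 to 5 lists, 9 were marked in more control than 4xIOP lists, 6 in equal numbers and 0 in more 4xIOP lists. Of the 3970 protein-coding genes marked in 1 to 5 lists, 73.2% were marked in more control lists, 15.2% in equal numbers and 11.6% in more 4xIOP lists, so the 60.0% of members in the first class is below the background. The difference was at least 2 lists for 5 members, all with more control lists (7.46%), beside 2.69% of all genes, and 0 members had at least 2 more 4xIOP lists, beside 0.201%. Hist1h1b and Hist1h1t are given above. Hist1h2bm (H2B) was marked in all control lists and in 4xIOP replicate 1, at the percentiles 63.5, 53.3, 71.6 and 63.3. Hist1h2ad (H2A) was marked in all control lists and 4xIOP replicate 2, with the peak of its neighbours, and a summit nearest to its own TSS was found in control replicate 3 only. Hist1h4d (H4) had weak peaks in control replicates 1 and 3 only, at the percentiles 11.3 and 3.80.

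Distinct peaks at members numbered 60.3 ± 13.3 per control list and 44.0 ± 4.36 per 4xIOP list (SD, n = 3). The difference of -16.3 peaks came to -2.33 with lists of equal length, and the counts then were 45, 46 and 37 against 43, 39 and 39. Between the 2 matching lists it was -36, and with groups taken from the names it was -7.67 with overlap. Member peaks had a median fold percentile of 57.1 ± 1.74 in the control lists and 49.8 ± 5.22 in the 4xIOP lists, a difference of -7.29 with no overlap. Relative to the median of all promoter peaks, which was also lower in 4xIOP on average, the lists stood at -6.89, -3.53 and -15.7 in the control lists and at -9.99, -12.1 and -15.2 in the 4xIOP lists. Control replicate 3 was then the lowest, the groups overlapped, and the difference was -3.71. With groups taken from the names, the unsubtracted difference was -0.586, and between the 2 matching lists it was -11.8. With lists of equal length the medians were 47.1, 51.3 and 47.2 in control and 44.2, 43.5 and 43.8 in 4xIOP, a difference of -4.70 without overlap.

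Among the 49 members marked in all 6 lists, 15 (30.6%) had a percentile in every control list above that in every 4xIOP list, and 0 had the reverse. The same held for 11.4% and 0.438% of the 8669 genes marked in all 6 lists. Counting members with the same peaks once left 8 of 28. A percentile within a list depends on the other peaks of that list, and the lists differ in length. Control replicate 2 had 19913 peaks, fewer than 4xIOP replicates 1 and 2 with 20338 and 20804. The part of list length in these counts was not tested. The mean percentile was lower in 4xIOP for 37 of 49 members (75.5%) and for 77.6% of all these genes, with median differences of -4.89 and -5.03.

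Ranks were therefore taken over the regions called in all 6 lists, which are the same in each list. The merged lists gave 74 regions at member promoters, of which 26 (35.1%) were called in all 6 lists, against 26.4% of 39942 regions genome-wide. The rank of the highest fold was turned into a normal score and tested with limma over all 10529 shared regions. With Benjamini-Hochberg adjustment 0 regions passed 0.05 in either direction (0% each), and the smallest adjusted p was 1.00. At an unadjusted p under 0.05 there were 158 higher and 176 lower regions in 4xIOP, 3.17% of all, and 0 of the 26 member regions.

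The median score difference, 4xIOP minus control, was -0.11 at members and 0.01 over all regions, and 16 of 26 member regions were lower in 4xIOP. The smallest p among members belonged to the region of Hist1h2bb/Hist1h3c, for H2B and H3. The highest fold within it was 4.49, 4.26 and 5.16 in the control lists and 3.44, 3.02 and 4.03 in the 4xIOP lists, with every control list above every 4xIOP list. The score difference was -0.61 ± 0.32 (SE) with an adjusted p of 1.00 in limma.

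At Hist1h2ac/Hist1h2bc, whose sequence is given above, the strongest promoter peak had percentiles 79.6, 65.6 and 84.5 in the control lists against 46.4, 38.3 and 40.8, with no overlap. The tested region held a fold of 5.56, 3.81 and 6.79 in the control lists and 3.99, 3.57 and 4.03 in the 4xIOP lists, so within the region control replicate 2 was below 4xIOP replicates 1 and 3. The promoter reaches beyond the region, and its strongest peak in control replicate 2 (fold 4.47) was another one. The score difference of the region was -0.61 ± 0.32 (SE) with an adjusted p of 1.00 in limma.

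Hist1h1d followed with -0.54 ± 0.31 (SE), also with an adjusted p of 1.00 in limma. Its region had a fold of 4.36, 3.40 and 5.07 in the control lists and 3.32, 3.44 and 3.06 in the 4xIOP lists, where control replicate 2 lay just below 4xIOP replicate 2. None of the 3 differences passed the test over all regions.

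In the other direction, the region at Hist2h2bb/Hist2h3b, for H2B and H3, had a fold of 4.25, 4.78 and 4.62 in the control lists and 4.22, 5.75 and 5.43 in the 4xIOP lists. The groups overlapped, and the score difference was 0.59 ± 0.35 (SE, limma adjusted p = 1.00). At Hist1h2ag/Hist1h2bj with Hist1h4i, for H2A, H2B and H4, the fold was 4.92, 3.19 and 5.89 in the control lists and 5.94, 3.95 and 5.10 in the 4xIOP lists. Here too the groups overlapped, with a difference of 0.58 ± 0.38 (SE, limma adjusted p = 1.00). The H4 gene Hist2h4 had 2 regions, and the one with the higher score in 4xIOP differed by 0.40 ± 0.32 (SE, limma adjusted p = 1.00), whereas the sign was negative (-0.0628) when its whole promoter was ranked.

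**Figure D4:**
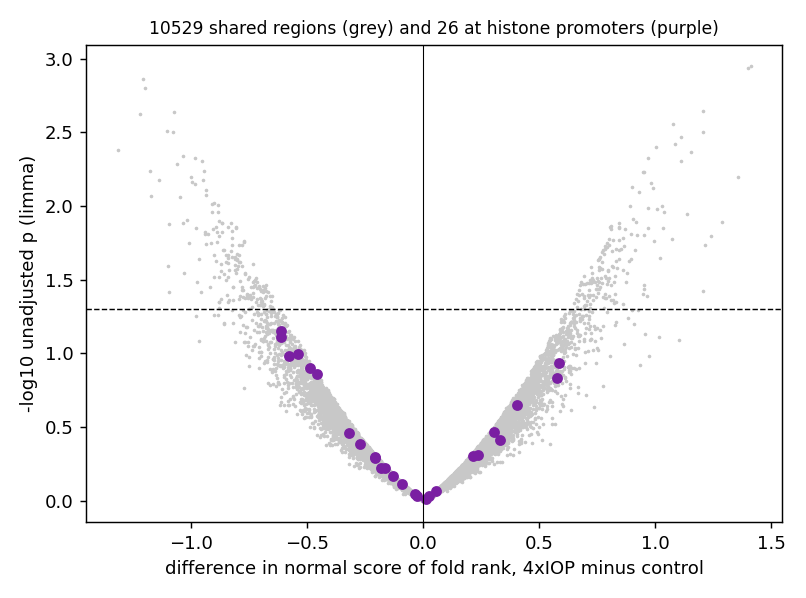
Score difference of each shared region (horizontal axis, 4xIOP minus control, normal score of the fold rank) against -log10 of its unadjusted limma p (vertical axis), with 26 regions at histone promoters in purple, all 10529 in grey and a dashed line at p of 0.05. No purple point is above the line, and 16 of 26 are left of 0.

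The rank of fold and the rank of the peak height gave different pictures. With fold, the 26 member regions had a median percentile among the shared regions of 48.3, 51.2 and 40.4 in the control lists and 41.5, 45.7 and 42.0 in the 4xIOP lists, and the groups overlapped. Every control list ranked above every 4xIOP list for 4 of 26 (15.4%), against 4.05% of all shared regions, and the reverse held for 0 of 26 against 4.31%. With the number of fragments at the summit, which is not divided by the local background, the medians were 69.5, 62.5 and 63.4 in control and 51.1, 49.6 and 51.3 in 4xIOP.

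In this measure the groups did not overlap, with means of 65.1 ± 3.84 and 50.7 ± 0.899 (SD, n = 3) and a difference of -14.4 percentile points. Every control list was above every 4xIOP list at 9 of 26 regions (34.6%), against 4.57% of all shared regions, and the reverse was found at 0 of 26 against 3.88%. The 9 were the regions of Hist1h4k, Hist1h2ak/Hist1h2bn, Hist1h4h with Hist1h2af, Hist1h1d, Hist1h1e/Hist1h2be, Hist1h2bb/Hist1h3c, Hist1h2ab/Hist1h3b, Hist2h2ab/Hist2h2ac/Hist2h2be and Hist2h3c2/Hist2h2aa2. Regions of Hist1 and Hist2 and of all 5 families were among them. With groups taken from the names, the groups overlapped at each of the 9. The other region of Hist1h2ak/Hist1h2bn then separated, with higher ranks in the lists named control.

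In the 22 regions without long exact copies the difference was -11.8. Within the lists whose shortest peak was over 200 bp it was -19.1 (1 control against 2 4xIOP), within the others -11.7 (2 against 1) and between the 2 lists with matching names -12.1, but each of these has a group of 1 list and so no spread to set it against. With groups taken from the names inside the lists it had the opposite sign, with means of 54.7 for the lists named control and 61.1 for those named 4xIOP, a difference of 6.37 with overlap. In limma on these ranks, by the labels, the score was lower in 4xIOP at 23 of 26 member regions, with a median of -0.40 against -0.000881 over all regions. Again 0 regions passed after adjustment (smallest adjusted p = 1.00), and 343 had an unadjusted p under 0.05, of which 155 were lower (1.47%) and 188 higher (1.79%) in 4xIOP. Among them were 3 of the 26 member regions, each lower in 4xIOP, namely Hist1h1d (-1.05 ± 0.31, SE), Hist1h4k (-0.67 ± 0.28, SE) and Hist2h3c2/Hist2h2aa2 (-0.61 ± 0.27, SE). The median summit-fragment rank over the members was added after the values had been seen. The local background under member peaks, over the mean of the list, was 3.76 ± 1.24 in the control lists and 2.85 ± 0.768 in the 4xIOP lists (SD, n = 3, overlapping), against 2.49 and 2.28 under all promoter peaks, and its part in the difference was not tested. In bulk retina, a different number of cells with a mark and a different amount of it per cell cannot be told apart.

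**Figure D5:**
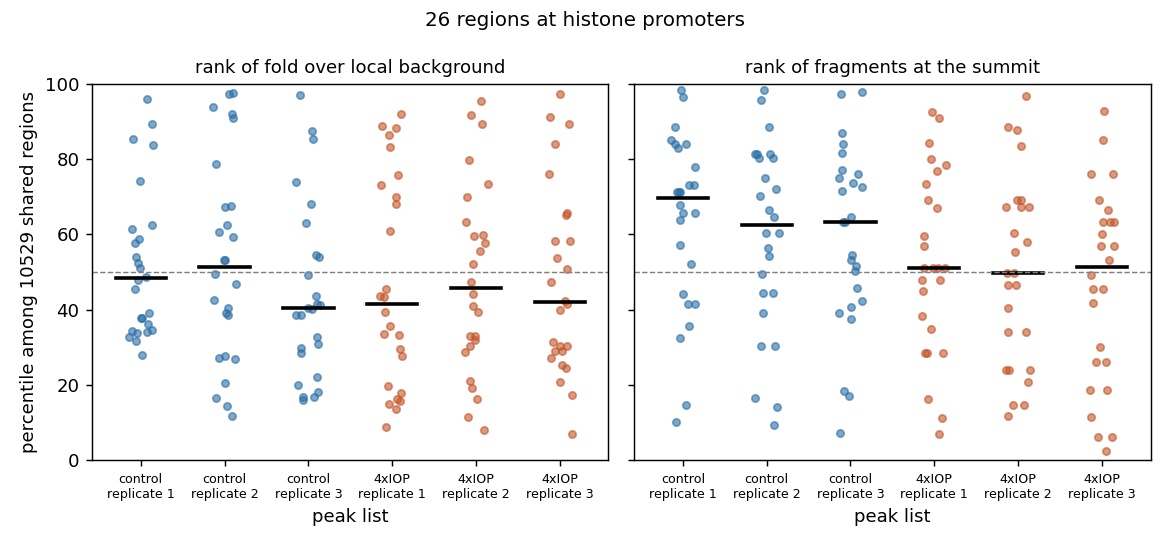
Percentile of the 26 regions at histone promoters (points) among the 10529 regions called in all 6 lists, by fold over local background (left) and by fragments at the summit (right), in each control (blue) and 4xIOP (orange) list, with the median as a bar and the overall median as a dashed line. By fold the medians overlap between groups, and by fragments they are 62.5 to 69.5 in control and 49.6 to 51.3 in 4xIOP.

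Genes that act with the members were examined in the same way. The replication-independent variants, which supply histones outside S phase, were marked in all 6 lists at 9 of 11 promoters, among them H3f3a, H3f3b, H2afz and H1f0. H1fx was marked only in 1 control list. Of 17 genes for histone transcription and mRNA processing, 13 were marked in all 6 lists, among them Npat, the NF-Y subunits Nfya, Nfyb and Nfyc, Slbp and Lsm11 of the U7 particle. Histone chaperones were marked in all 6 lists at 7 of 12 promoters, with Hira and Asf1a in 6 lists and the replication-coupled Chaf1a and Chaf1b in 2 lists and 1 list.

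Genes of S phase and proliferation were marked less widely, at 6 of 24 promoters in all 6 lists and at 10, 9 and 18 promoters in control and 10, 10 and 6 in 4xIOP. Top2a, Cdk1, Aurkb, Ube2c, Bub1 and Mcm3 were marked in 0 lists. No gene of these 4 lists was marked in all control and no 4xIOP lists, or the reverse. The share marked in all 6 lists was 73.1% for members and 39.5% for all protein-coding genes. It was 81.8% for the variants, 76.5% for the transcription and processing genes, 58.3% for the chaperones and 25.0% for the S phase genes. These shares were not tested against each other, and the close spacing of members enters theirs. By the nearest summit the share was 38.8% for members and 33.9% for all genes, and this count was not made for the 4 lists.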

How the data were processed

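Peak lists of 6 H3K27ac ChIP-seq samples (3 control, 3 4xIOP) were analysed. Per the labels, the submitters' processing notes name STAR 2.7.8a, MACS2, HOMER, edgeR and bedtools 2.29.2 and the build mm10, without roles. Reads were paired-end, 100 bp. The deposited values were the authors' fold (ratio of pile-up to local background), −log10 p-value and −log10 q-value of each peak. No read counts were used, and fragments were solved from fold and p, which returned the deposited −log10 p within 0.001 for at least 99.99% of peaks per list. Fragments are not independent molecules where PCR copies remain, so depth was used as a description.

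Promoters came from GENCODE vM21 basic (41525 TSS). In 11 members all transcript models start at the start codon, so the TSS lies there. The shared-region fit used limma 3.58.1 (R 4.3.3) without covariates, and was checked on simulated data. The labels do not name the animals, and p-values measure only the spread between these samples. Exact copies were searched with blastn 2.17.0. The members, the gene lists and the comparisons were chosen with earlier results of these data known. Genes were named by rule: the 5 highest and 3 lowest members in all 6 lists, those differing by at least 2 lists between groups, the 3 smallest p per direction, all H1, Hist3 and Hist4 genes, the testis genes, the strongest pair and members in no list. The alternatives varied the promoter width, the summit rule, the q threshold, list length, lists used, class by shortest peak, grouping by the names inside the lists, pairing and scale.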

Additional observations from a re-analysis of the deposited data

How the results depend on the processing

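Most values kept their direction under the alternatives, and the part of list depth in the marking of weak peaks was not tested. With −log10 q of at least 5, members marked in all control and no 4xIOP lists were 1 (Hist1h4f) instead of 0. With each list left out in turn they were 0 to 2, with 1 without control replicate 2 (Hist1h4d), 2 without 4xIOP replicate 1 (Hist1h1b, Hist1h2bm), 1 without 4xIOP replicate 2 (Hist1h2ad) and 1 without 4xIOP replicate 3 (Hist1h1t). The difference in distinct peaks was -2.33 with lists of equal length. Between the 2 lists with matching names, the share differed by -19.4 points, the peaks by -36 and the count in control only was 13 (19.4% of members, beside 12.54% of all genes). Among the lists whose shortest peak was under 200 bp the differences were -15.7 points in share and -13.5 in median fold percentile, and among the other lists these were -1.49 and -3.87, and the summit-fragment rank differed by -19.1. Counting by the nearest TSS left 26 members in 6 lists. The cause of these changes was not tested. The setting with lists of equal length also changes the lowest fold kept in the longer lists.

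With each list left out, the share difference ranged from -9.70 to -2.99 points (-2.99 without 4xIOP replicate 3), the peak difference from -22 to -9 (-9 without control replicate 3), the median percentile difference from -8.97 to -4.28 (-4.28 without 4xIOP replicate 3), and the summit-fragment rank difference from -15.8 to -12.2. By the labels, limma gave 0 calls in every alternative. With groups taken from the names inside the lists, limma gave 0 higher and 1 lower region by fold and 33 higher and 2 lower by summit fragments, 0 of them at members, and 9.68% of regions by fold had an unadjusted p under 0.05, against 3.17% by the labels. By the names, the median fold percentile differed by -0.586, and the summit-fragment rank by 6.37, the latter opposite in sign to the labels. The score difference was then 0.60 at Hist1h2bb/Hist1h3c, 0.17 at Hist1h2ac/Hist1h2bc and -0.28 at Hist1h2ag/Hist1h2bj by fold, and 0.24 at Hist1h2bb/Hist1h3c, 0.0142 at Hist1h1d and -0.27 at Hist1h2ag/Hist1h2bj by summit fragments, all opposite in sign to the labels. Which group assignment is right was not tested. The score difference at Hist2h4 was -0.0628 with promoters in place of regions, and no other named region changed sign by the labels. Samples of equal number deviated with correlations of -0.02, -0.06 and -0.15, and the labels do not pair them. With the replicate block, limma gave 0 calls, and the differences were -6.97 points, -16.3 peaks, -7.29 and -14.4, as without it. The median summit-fragment rank, the grouping by names, the subtraction of the median of all promoter peaks, the exclusion of copied members and the other settings for block coverage and family medians were added after seeing the data. Without the 10 copied members the share difference was -8.19 points, and 42 of 57 were marked in all 6 lists.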
